A study of Mus musculus with 2 samples.

Results

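Collagen chain genes were examined in mouse fetal thymic stromal cells grown in 2 ways. The members were all non-control probes named for a collagen alpha chain in both scanner files, which gave 40 of 27962 gene names on the array. They were read by 78 of 41174 probes, on 96 of 43379 spots. Cells came from C57BL/6 fetuses at E14.5 or E15.5. In both cultures the lobes had first been kept with 1.35 mM deoxyguanosine, which depletes thymocytes, for 8 days (E14.5) or 9 days (E15.5), and were then dispersed. The cells were grown for 72 h either as a reaggregate on a membrane (reaggregation thymus organ culture, RTOC) or on a dish (2D culture). Each array carried RTOC RNA labelled with Cy5 and 2D RNA of the same stage labelled with Cy3. The dyes were not swapped, so dye and culture cannot be told apart. The stages also differ in array and in days of organ culture, so these cannot be separated, and whether a pool of fetuses lay behind each RNA is not given in the sources used here.

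Collagens are made of chains that wind in threes into a triple helix built of Gly-X-Y repeats, each with glycine first. Fibrillar collagens (types I, II, III, V, XI, XXIV and XXVII) build the fibrils of connective tissue. Type IV forms the sheet of basement membranes, types VIII and X form short networks, FACITs sit on fibril surfaces, type VI forms beaded filaments, and type VII anchors epithelial basement membranes to the matrix below. In the thymus, the capsule, the septa and the vessel walls hold fibrillar collagen, and some of the epithelial cells lie on basement membrane.

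The repeat can be read in the probes themselves. Over all probes with a sequence on the array, 3 of 41174 held an unbroken run of Gly-X-Y codon triplets in a frame free of stop codons, and each of the 3 was a collagen probe of 60 bases. They are shown because they lie in triple-helix coding sequence and so mark the protein domain that names the family. Capitals are the glycine codons:
Col11a2: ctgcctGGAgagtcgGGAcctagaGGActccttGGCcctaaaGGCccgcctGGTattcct
Col5a1: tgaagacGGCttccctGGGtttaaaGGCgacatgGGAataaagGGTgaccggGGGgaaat
Col5a3: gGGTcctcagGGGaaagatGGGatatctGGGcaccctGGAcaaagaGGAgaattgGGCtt
Between probes of different collagen genes, the longest exact run in common was 11 bases, so no pair of them shared most of a probe.

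A level is given below as the log2 of the quantile-normalized signal of 1 culture on 1 array, and a ratio as the log2 of RTOC over 2D culture on the same array, with its mean ± SD over the 2 arrays. A probe entered the test if each array showed it well above background in at least 1 culture, as was so for 54 collagen probes of 36 genes. Col9a3, Col10a1, Col23a1 and Col28a1 had no such probe. Of the 54 probes, 10 (18.5%) were higher and 23 (42.6%) were lower in RTOC at an adjusted p under 0.05 (limma, Benjamini-Hochberg over 23685 probes). Over all tested probes the same calls took 15.2% and 13.6%, 28.8% together. A probe that passes this filter through a single culture is bound to differ, so the 40 collagen probes well above background in all 4 channels were also counted. Of these, 6 (15%) were called higher and 20 (50%) lower. Of the 20158 probes of all genes under that filter, 14.1% and 16.0% were called in these directions, 30.1% together. Since 2 arrays leave 1 residual degree of freedom, each p-value borrows its spread from all probes and speaks of these 2 arrays only. Where both arrays read a culture as dim, that is, not well above background, the change of the probe is given as a bound, and the p beside it belongs to the ratio against that background signal, not to the bound. The bound sets the dim culture at the dimmest probe well above background, or at the probe's own signal where that was higher. Where its own signal was higher on both arrays, the change is given as an estimate under normexp background correction with loess, not as a bound.

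By the brightest tested probe of each gene, 8 genes were higher, 14 were lower and 14 were not called. Among the 29 genes measured in all 4 channels these counts were 5, 13 and 11, since Col9a1, Col13a1 and Col24a1 were dim in 2D culture and Col12a1 in RTOC at E15.5. The median log2 ratio of the 36 genes was -0.31, beside -0.01 for all tested probes. By class it was -1.22 for fibrillar, -0.99 for basement membrane, 0.58 for FACIT and 0.91 for beaded filament collagens. With genes measured in all 4 channels only, the median was -0.39 over all and 0.68 over the 4 FACITs left. For the fibrillar class the median was -0.39 at E14.5 and -0.82 at E15.5. The chains within a class did not move as a block, and the network class held both the lowest gene, at -5.23, and the highest, at 3.53.

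**Figure D1:**
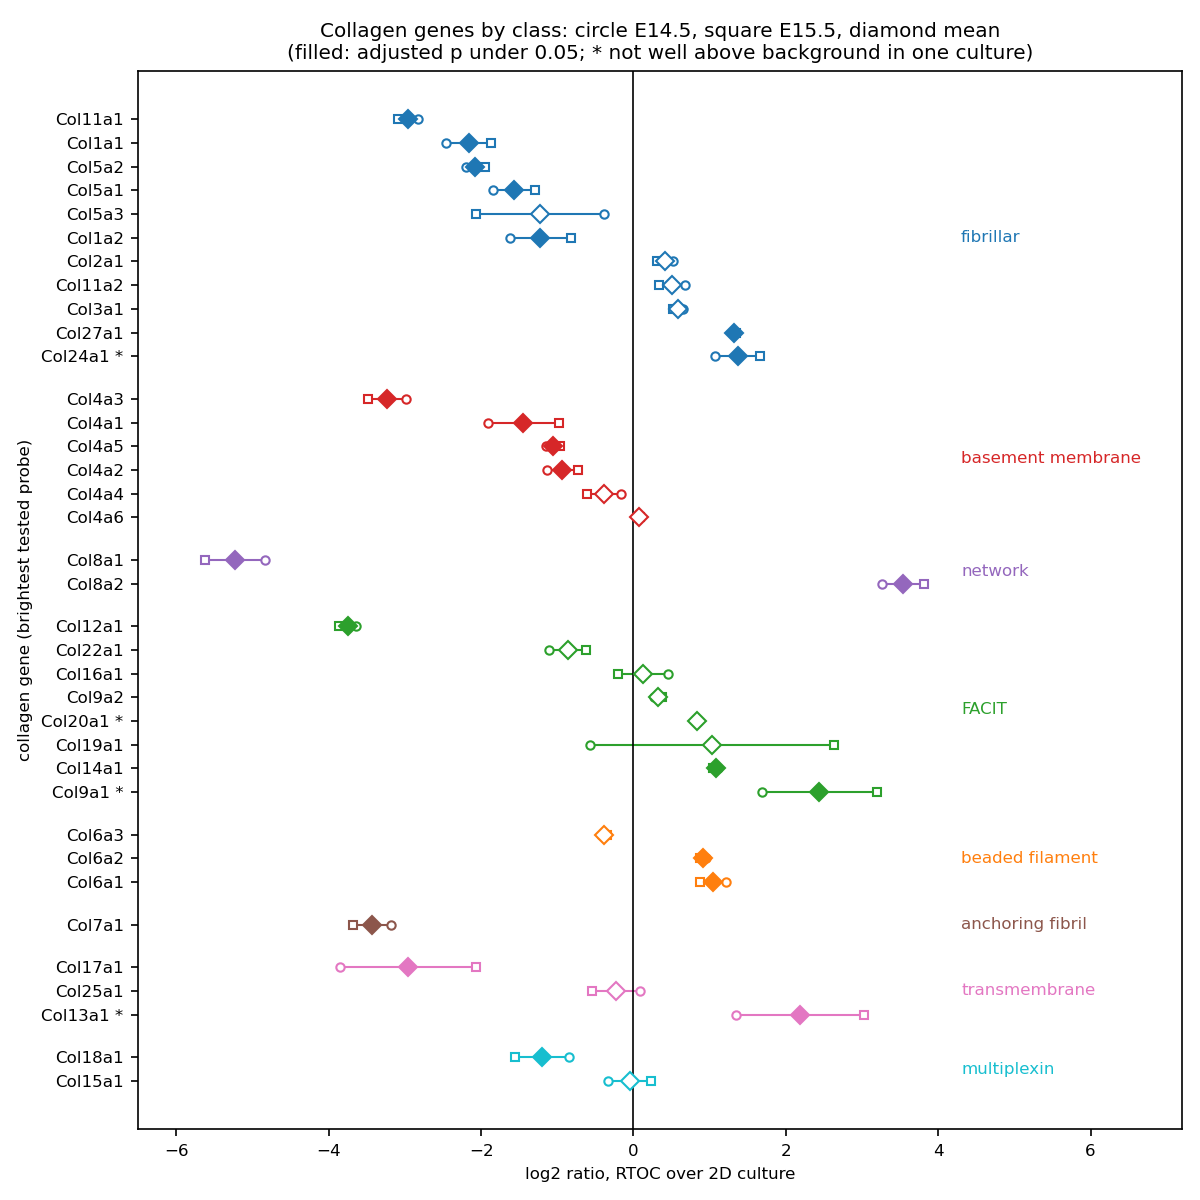
The log2 ratio of RTOC over 2D culture (horizontal axis) for the 36 collagen genes with a tested probe, grouped by class, with the E14.5 array as a circle, the E15.5 array as a square and the mean as a diamond, filled where the adjusted p was under 0.05. Filled diamonds lie on both sides of 0 in the fibrillar, network, FACIT and transmembrane classes, and only on the lower side among the type IV genes.

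The 2 chains of type VIII collagen, a short-chain collagen of basement membranes such as that under the corneal endothelium and of vessel walls, moved in opposite directions. The level of Col8a1 was 15.25 (E14.5) and 14.32 (E15.5) in 2D culture and 10.42 and 8.69 in RTOC. The level of Col8a2 was 7.92 and 8.20 in 2D culture and 11.18 and 12.01 in RTOC. For both genes the cultures did not overlap. The ratio of Col8a1 was -5.23 ± 0.56 (SD, n = 2), 37.5-fold lower in RTOC (limma, adjusted p = 0.00161). Its other probe, designed from a cDNA clone, was not well above background in RTOC on either array and was at least 4.25-fold lower there (adjusted p = 0.00161). The ratio of Col8a2, which had 1 probe, was 3.53 ± 0.39 (SD, n = 2), 11.6-fold higher in RTOC (adjusted p = 0.0019). Under normexp background correction with loess in place of quantile normalization, the ratios were -4.59 for Col8a1 (24.1-fold) and 2.13 for Col8a2 (4.39-fold). Col10a1, the other network collagen and a product of hypertrophic cartilage, was not well above background in any channel.

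The 250 bases upstream of the start of both type VIII genes are shown because the genes had the lowest and the highest ratio of the family. They come from RefSeq (GRCm38.p6) and read in the direction of the gene, with GGGCGG, the core of a GC box, in capitals on either strand (CCGCCC on the other). Col8a1 lies at chr16:57754738-57754987 (minus strand) and Col8a2 at chr4:126286544-126286793 (plus strand):
Col8a1: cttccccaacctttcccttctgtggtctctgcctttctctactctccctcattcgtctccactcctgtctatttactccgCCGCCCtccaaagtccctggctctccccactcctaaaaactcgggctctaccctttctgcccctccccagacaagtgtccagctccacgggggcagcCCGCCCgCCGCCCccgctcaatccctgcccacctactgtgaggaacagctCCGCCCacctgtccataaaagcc
Col8a2: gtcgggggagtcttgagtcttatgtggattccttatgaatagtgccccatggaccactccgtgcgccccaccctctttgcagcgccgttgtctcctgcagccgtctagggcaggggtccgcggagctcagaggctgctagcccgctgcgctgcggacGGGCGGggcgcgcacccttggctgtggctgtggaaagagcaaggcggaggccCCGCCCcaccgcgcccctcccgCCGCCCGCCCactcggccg
Each window held the GC box 4 times, and a pair of them overlap in Col8a2. Of the 35 upstream windows found for 32 of the 40 genes, 19 (54.3%) held it, as did 32.7% of 32851 windows of all genes. The GC content of the windows had a median of 59.2% for the collagen genes and 52.4% for all genes. TATAAA, counted on both strands, stood in 14.3% of the collagen windows and 12.4% of all, and CCAAT in 34.3% and 33.8%. TGANTCA stood in 2.86% of the collagen windows and 6.75% of all, and GGAATG in 11.4% and 12.6%. These matches are descriptions of letters, and the windows of Col8a1 and Col8a2 did not differ in the count of the GC box although their ratios were opposite in sign.

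Among the fibrillar genes, Col1a1, Col1a2, Col5a1, Col5a2 and Col11a1 made up the lower calls. Type I is the main collagen of skin and bone. The level of Col1a1 was 17.58 and 17.43 in 2D culture and 15.12 and 15.56 in RTOC (E14.5 and E15.5 here and below). The level of Col1a2 was 16.96 and 16.32 in 2D culture and 15.34 and 15.497 in RTOC. In both genes each RTOC value lay below each 2D value. The ratio of Col1a1 was -2.16 ± 0.42 (SD, n = 2; limma, adjusted p = 0.00551) over a probe printed 10 times, whose spots had an SD of the log2 ratio of 0.04 (E14.5) and 0.02 (E15.5). The other probes of Col1a1 gave -1.43 (adjusted p = 0.0133) and -1.87 (adjusted p = 0.00801). The last of these was not called after normexp and loess (-0.42, adjusted p = 0.106). The ratio of Col1a2 was -1.22 ± 0.57 (SD, n = 2; adjusted p = 0.0351), -1.63 at E14.5 and -0.82 at E15.5.

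Types V and XI form mixed fibrils with types I and II and are known to set fibril diameter. The level of Col5a1 was 15.11 and 14.69 in 2D culture and 13.27 and 13.39 in RTOC, a ratio of -1.57 ± 0.38 (SD, n = 2; limma, adjusted p = 0.0134). Its helix probe shown above gave -1.87 ± 0.60 (SD, n = 2; adjusted p = 0.0111), so both probes of the gene were called lower. The helix probe was not called after normexp and loess (-0.60, adjusted p = 0.0702). The level of Col5a2 was 14.37 and 13.70 in 2D culture and 12.17 and 11.75 in RTOC, a ratio of -2.07 ± 0.18 (SD, n = 2; adjusted p = 0.00476). Both genes were lower in RTOC on both arrays without overlap. Col5a3 was uneven between the arrays. Its ratio was -0.39 at E14.5 and -2.06 at E15.5 (adjusted p = 0.0879), with levels of 12 and 13.62 in 2D culture and 11.61 and 11.55 in RTOC. Its helix probe was not well above background in any channel.

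Col11a1 had the lowest ratio of the fibrillar genes. Its level was 12.01 and 11.43 in 2D culture and 9.18 and 8.35 in RTOC, a ratio of -2.96 ± 0.18 (SD, n = 2; limma, adjusted p = 0.00228), or 7.77-fold lower, and -2.02 (4.06-fold) after normexp and loess. Its partner chain in type XI collagen, Col11a2, was at 8.24 and 8.00 in 2D culture and 8.91 and 8.33 in RTOC, and its ratio of 0.50 did not pass (adjusted p = 0.196). Its helix probe shown above was well above background on the E15.5 array only and was not tested.

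Type III collagen did not follow type I. Col3a1, which makes the fine reticular fibres of soft organs and vessels, had a level of 14.85 and 14.93 in 2D culture and 15.498 and 15.45 in RTOC. Its ratio of 0.58 ± 0.10 (SD, n = 2) did not pass (limma, adjusted p = 0.135), although under normexp with median centring it came to 0.995 and did pass (adjusted p = 0.0367). Its other tested probe gave -0.29 (adjusted p = 0.427). Col3a1 and Col5a2 are neighbouring protein-coding genes on chromosome 1 in the RefSeq annotation, and only the call of Col5a2 passed. The genes of the type XXIV and XXVII chains were the fibrillar genes called higher. The level of Col27a1 was 8.75 and 9.34 in 2D culture and 10.05 and 10.69 in RTOC. Its ratio was 1.32 ± 0.04 (SD, n = 2; adjusted p = 0.0166), and its other probes gave 1.05 (adjusted p = 0.0408) and 1.35 (adjusted p = 0.0189, with a dim 2D signal at E14.5). Neither of these other probes was called after normexp and loess (adjusted p = 0.114 and 0.121). The 2D signal of Col24a1 did not clear background on either array, which leaves a bound of at least 1.1-fold higher in RTOC (adjusted p = 0.0206).

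**Figure D2:**
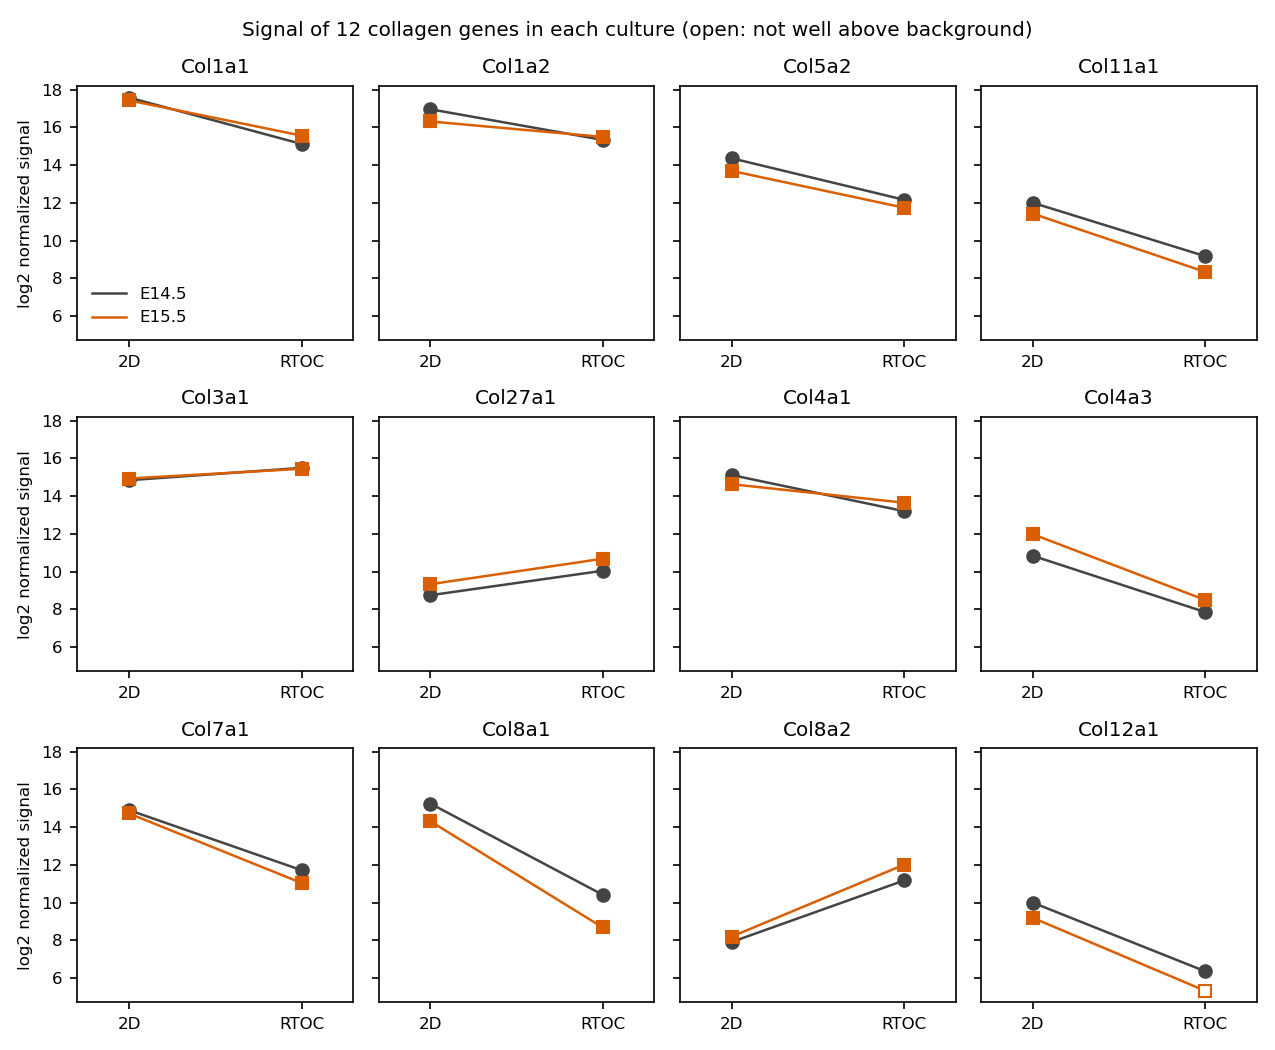
The log2 normalized signal (vertical axis) of 12 collagen genes in 2D culture and RTOC at E14.5 (grey circles) and E15.5 (orange squares), 1 value for each culture and array, by the brightest probe. The lines fall for Col1a1, Col1a2, Col5a2, Col11a1, Col4a1, Col4a3, Col7a1, Col8a1 and Col12a1 and rise for Col8a2, Col27a1 and Col3a1, and the open square of Col12a1 marks a signal not well above background.

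Col2a1, the main collagen of cartilage, gave opposite signs with overlapping probes. The probes share 40 bases, shown in capitals, and so report on nearly the same stretch of the message:
brightest probe: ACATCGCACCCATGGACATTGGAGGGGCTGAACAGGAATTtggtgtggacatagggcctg
other probe: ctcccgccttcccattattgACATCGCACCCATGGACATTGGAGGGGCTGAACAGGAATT
The first, printed 10 times, had levels of 12.67 and 12.71 in 2D culture and 13.19 and 13.02 in RTOC, a ratio of 0.42 ± 0.15 (SD, n = 2; limma, adjusted p = 0.263). The second had levels of 8.78 and 8.35 in 2D culture and 7.87 and 7.59 in RTOC, a ratio of -0.83 ± 0.11 (SD, n = 2; adjusted p = 0.0593). Neither ratio passed. Of the cartilage markers Comp, Hapln1, Matn1 and Matn3 none was well above background in any channel. Acan and Sox9 were called lower and Cnmd higher. The call of Acan was lost after normexp and loess (-0.15, limma adjusted p = 0.412). Cnmd was dim in 2D culture on both arrays. After normexp and loess its rise was 2.42-fold (adjusted p = 0.0193), an estimate against its own dim signal. The part of these markers in the Col2a1 values was not tested.

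The 6 type IV chains lie as 3 head-to-head pairs of neighbouring genes: Col4a1 with Col4a2 on chromosome 8, Col4a3 with Col4a4 on chromosome 1, and Col4a5 with Col4a6 on the X chromosome. No type IV probe was called higher, and 8 of 11 (72.7%) were called lower. Of all tested probes, 15.2% were called higher and 13.6% lower. Col4a1, Col4a2 and Col4a3 each gave 2 of the lower calls, and by the brightest probe 4 of the 6 genes were called lower. Col4a1 and Col4a2, the chains of nearly all basement membranes, were lower together. The level of Col4a1 was 15.12 and 14.64 in 2D culture and 13.21 and 13.65 in RTOC, a ratio of -1.45 ± 0.66 (SD, n = 2; limma, adjusted p = 0.0254), and its other probe gave -1.32 (adjusted p = 0.0245). The level of Col4a2 was 14.59 and 14.05 in 2D culture and 13.45 and 13.32 in RTOC, a ratio of -0.93 ± 0.29 (SD, n = 2; adjusted p = 0.0496), and its other probe gave -1.49 (adjusted p = 0.0129).

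In the other pairs the brightest probes of the partners did not share a call, and the difference between partners was not tested. Col4a3, which joins Col4a4 and Col4a5 in the basement membrane of the kidney glomerulus and a few other epithelia, had levels of 10.84 and 11.99 in 2D culture and 7.86 and 8.5 in RTOC. Its ratio was -3.23 ± 0.35 (SD, n = 2; limma, adjusted p = 0.00223), or 9.40-fold lower, and -2.06 after normexp and loess. Another of its probes gave -4.77 (adjusted p = 0.00161) but was well above background in RTOC on the E15.5 array only. Col4a4 was read in discordant ways. The brightest probe, from the RefSeq transcript, was at 11.35 and 12.03 in 2D culture and 11.18 and 11.41 in RTOC, a ratio of -0.39 ± 0.32 (SD, n = 2; adjusted p = 0.312). The probe from a cDNA clone was at 10.48 and 11.23 in 2D culture, was not well above background in RTOC on either array, and was at least 4.18-fold lower there (adjusted p = 0.00161). Which transcripts each probe reports was not tested. Col4a5 was at 9.01 and 9.55 in 2D culture and 7.86 and 8.59 in RTOC, a ratio of -1.05 ± 0.14 (SD, n = 2; adjusted p = 0.0322), and -0.46 (adjusted p = 0.0798) after normexp and loess. Its neighbour Col4a6 was at 8.49 and 10.42 in 2D culture and 8.56 and 10.51 in RTOC, a ratio of 0.08 ± 0.01 (SD, n = 2; adjusted p = 0.836). The other tested probe of Col4a6 gave -0.07 (adjusted p = 0.855).

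Of the 16 genes with more than 1 tested probe, all tested probes were called the same way in 8, some were called in 3 and none in 5. Among the 8, Col1a1, Col5a1, Col17a1 and Col27a1 had at least 1 dimmer probe that was not called after normexp and loess. The probes had mean ratios of the same sign in 12 genes and of opposite sign in 4, namely Col2a1, Col3a1, Col4a6 and Col19a1, and no gene had calls in both directions. The widest span was that of Col4a4, 6.28 on the log2 scale, between a probe measured in both cultures and a probe that was dim in RTOC.

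**Figure D3:**
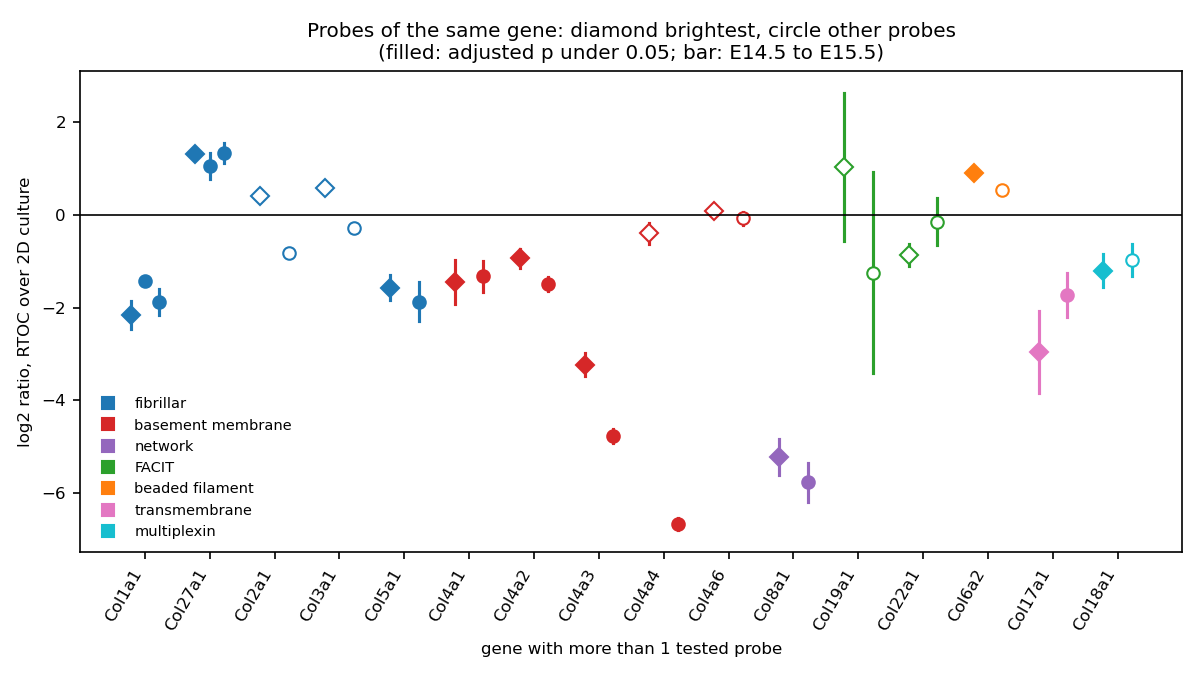
The mean log2 ratio of RTOC over 2D culture (vertical axis) for each tested probe of the 16 genes with more than 1, with the brightest probe as a diamond and the others as circles, filled where the adjusted p was under 0.05, and bars from the E14.5 to the E15.5 value. Probes lie close together for Col4a1, Col4a6, Col18a1 and Col27a1, and far apart for Col4a4.

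Col7a1 and Col17a1, both known from the skin, were lower in RTOC. Col7a1, the chain of anchoring fibrils, was at 14.90 and 14.73 in 2D culture and 11.72 and 11.05 in RTOC, a ratio of -3.43 ± 0.35 (SD, n = 2; limma, adjusted p = 0.00196), or 10.8-fold lower. Col17a1, the transmembrane collagen of hemidesmosomes, was at 11.61 and 10.86 in 2D culture and 7.75 and 8.79 in RTOC, a ratio of -2.96 ± 1.26 (SD, n = 2; adjusted p = 0.00892). Its other tested probe gave -1.73 (adjusted p = 0.0157), with a dim RTOC signal at E14.5, and was not called after normexp and loess (-0.34, adjusted p = 0.16). For both genes the cultures did not overlap, and Col17a1 differed more between the arrays (-3.86 at E14.5, -2.07 at E15.5) and came to -1.74 after normexp and loess. Col18a1, a multiplexin of basement membranes whose C-terminal end is endostatin, was at 13.71 and 15.14 in 2D culture and 12.86 and 13.58 in RTOC. The cultures came close here, since the E15.5 RTOC value lay just below the E14.5 2D value. Its ratio was -1.20 ± 0.50 (SD, n = 2; adjusted p = 0.0329), and its other probe gave -0.97 (adjusted p = 0.0575). Col15a1, the other multiplexin, gave -0.05 (adjusted p = 0.908).

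Type VI collagen, whose heterotrimer links cells to interstitial matrix, was called higher for 2 of its 3 measured chains. Col6a1 was at 9.70 and 10.21 in 2D culture and 10.91 and 11.09 in RTOC, a ratio of 1.04 ± 0.24 (SD, n = 2; limma, adjusted p = 0.0356). Col6a2, its neighbour on chromosome 10, was at 8.30 and 8.68 in 2D culture and 9.25 and 9.55 in RTOC, a ratio of 0.91 ± 0.05 (SD, n = 2; adjusted p = 0.0461), while its other probe gave 0.53 (adjusted p = 0.163). The call of Col6a2 was lost after normexp and loess (0.50, adjusted p = 0.0702), and that of Col6a1 was kept (0.75, adjusted p = 0.0425). The remaining chain, Col6a3, was at 13.33 and 13.45 in 2D culture and 12.90 and 13.11 in RTOC, a ratio of -0.38 ± 0.06 (SD, n = 2; adjusted p = 0.29).

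The FACITs were mixed. Col12a1, which coats type I fibrils in dense tissue, was at 10.00 and 9.20 in 2D culture and 6.37 and 5.33 in RTOC, where it was well above background on the E14.5 array only. Its ratio was -3.75 ± 0.16 (SD, n = 2; limma, adjusted p = 0.00161), and -1.31 (2.48-fold; adjusted p = 0.0247) after normexp and loess, so its size is uncertain. Col14a1, a close relative of Col12a1 that also binds fibrils, was at 7.94 and 8.09 in 2D culture and 9.06 and 9.13 in RTOC, a ratio of 1.08 ± 0.05 (SD, n = 2; adjusted p = 0.0291). These related genes were thus called in opposite directions, but the call of Col14a1 was lost after normexp and loess (0.52, adjusted p = 0.066). Col9a1, a chain of the FACIT on cartilage fibrils, had a dim 2D signal on both arrays and was called higher in RTOC (adjusted p = 0.0116). Its rise was 1.62-fold after normexp and loess (adjusted p = 0.103), an estimate against its own dim signal. Its partner chain Col9a2 gave 0.32 (adjusted p = 0.375).

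Col19a1 moved in opposite directions on the 2 arrays. It was at 9.40 in 2D culture and 8.84 in RTOC at E14.5, and at 7.14 and 9.77 at E15.5, ratios of -0.57 and 2.63 (limma, adjusted p of the mean = 0.325). Its other tested probe was dim in RTOC at E14.5 and in 2D culture at E15.5, so neither of its ratios is a measured size. Col16a1 gave 0.12 (adjusted p = 0.77). Col20a1 was dim in 2D culture on both arrays, and its ratio did not pass (adjusted p = 0.0564). After normexp and loess it was 1.11-fold higher in RTOC (adjusted p = 0.414), an estimate against its own dim signal. Col22a1 gave -0.86 (adjusted p = 0.0646), with a dim RTOC signal at E14.5. Among the remaining transmembrane collagens, Col13a1, a protein of cell adhesion sites, was likewise dim in 2D culture and called higher in RTOC (adjusted p = 0.0193). After normexp and loess its rise was 1.38-fold (adjusted p = 0.11), again against its own dim signal. Col25a1, a collagen best known from neurons, gave -0.23 (adjusted p = 0.567), with a dim 2D signal at E14.5.

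The 24 untested probes belonged to 20 genes. Of them, 17 cleared background in no channel, among them the probes of Col10a1 and Col28a1. Another 5 did so in 1 channel, and 2 did so in both cultures at E15.5 only, namely the helix probe of Col11a2 and a probe of Col4a6. Second probes of Col11a1 and Col1a2 were measured in 2D culture at E14.5 alone and were not tested. The signal of the Col11a1 probe was 1.24-fold lower in RTOC over both arrays. This takes in its dim 2D signal at E15.5, so it is an estimate and not a bound. The signal of the Col1a2 probe was 1.11-fold lower after normexp and loess, an estimate against its own dim RTOC signal. The second probe of Col22a1 was tested, but its 2D signal was dim on both arrays and no fold is given (limma, adjusted p = 0.77).

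Over both arrays, 30 of the 54 tested collagen probes were lower and 17 were higher in RTOC at both stages, and 7 changed sign between them. None of the 7 was at least 2-fold higher on 1 array and 2-fold lower on the other. Over all tested probes the ratios of the 2 arrays had a Pearson correlation of 0.83, so agreement between the arrays was not confined to collagen probes. The share of all tested probes that kept their sign is not given here, so the collagen counts cannot be set against it. A single array per stage allows no test between the stages.

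**Figure D4:**
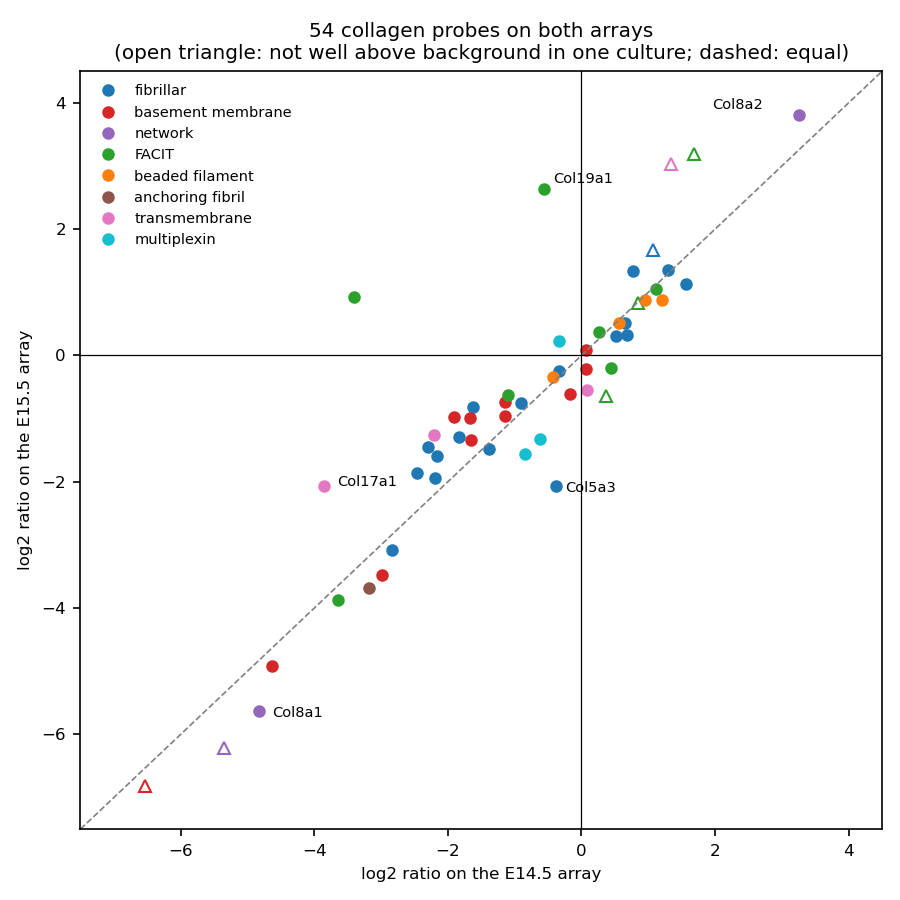
The log2 ratio on the E15.5 array (vertical axis) against that on the E14.5 array (horizontal axis) for the 54 tested collagen probes, coloured by class, with a dashed line of equal ratios and open triangles for probes not well above background in 1 culture. Most points lie near the line from Col8a1 at -4.83 and -5.63 to Col8a2 at 3.26 and 3.81, and Col19a1 and Col5a3 lie away from it.

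Chains become collagen through enzymes and chaperones in the cell and proteases and crosslinkers outside it, and cells bind collagen through receptors. Over these genes, 8 of 54 tested probes were called higher and 27 lower, beside 15.2% and 13.6% of all tested probes. Of 25 tested probes for modification and folding, 2 were higher and 12 lower. The lowest 3 genes were P4ha2, a prolyl hydroxylase subunit (-2.24, limma adjusted p = 0.00379), Plod2, which hydroxylates telopeptide lysines (-2.04, adjusted p = 0.0047), and Serpinh1, the collagen chaperone HSP47 (-1.75, adjusted p = 0.0217, but 0.0644 after normexp and loess). Colgalt2, a collagen galactosyltransferase, was the gene of the list called higher. It was dim in 2D culture, which bounds its change at 1.25-fold or more (adjusted p = 0.00438, but 0.136 after normexp and loess).

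Of 16 tested probes for procollagen processing and crosslinking, 4 were higher and 9 lower. The lysyl oxidases Lox (-2.99, limma adjusted p = 0.00223) and Loxl2 (-2.16, adjusted p = 0.00412) were lower with signal in all 4 channels. Tll1, a procollagen C-proteinase relative, was dim in RTOC and called lower there (adjusted p = 0.00161). After normexp and loess it was 2.22-fold lower (adjusted p = 0.0304), an estimate against its own dim signal. By the brightest probe, the genes called higher were Adamts3, an N-proteinase (at least 1.31-fold higher, dim in 2D culture; adjusted p = 0.00323, but 0.0925 after normexp and loess), and Pcolce2, an enhancer of C-proteinase activity (2.33, adjusted p = 0.00474). The remaining higher calls were probes of Adamts2, the main procollagen N-proteinase, at 1.72 (adjusted p = 0.0137) and 1.01 (adjusted p = 0.0365), while its brightest probe gave 0.86 (adjusted p = 0.0641) and another gave -0.16 (adjusted p = 0.647). Of 13 tested probes for receptors, 2 were higher and 6 lower. The integrin subunits Itgb1 (-2.16, adjusted p = 0.00436), Itga11 (-1.73, adjusted p = 0.00744) and Itga1 (-1.45, adjusted p = 0.0254, but 0.1 after normexp and loess) were the lowest, and Lair1, an inhibitory receptor of leukocytes, was higher (2.00, adjusted p = 0.0127).

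**Figure D5:**
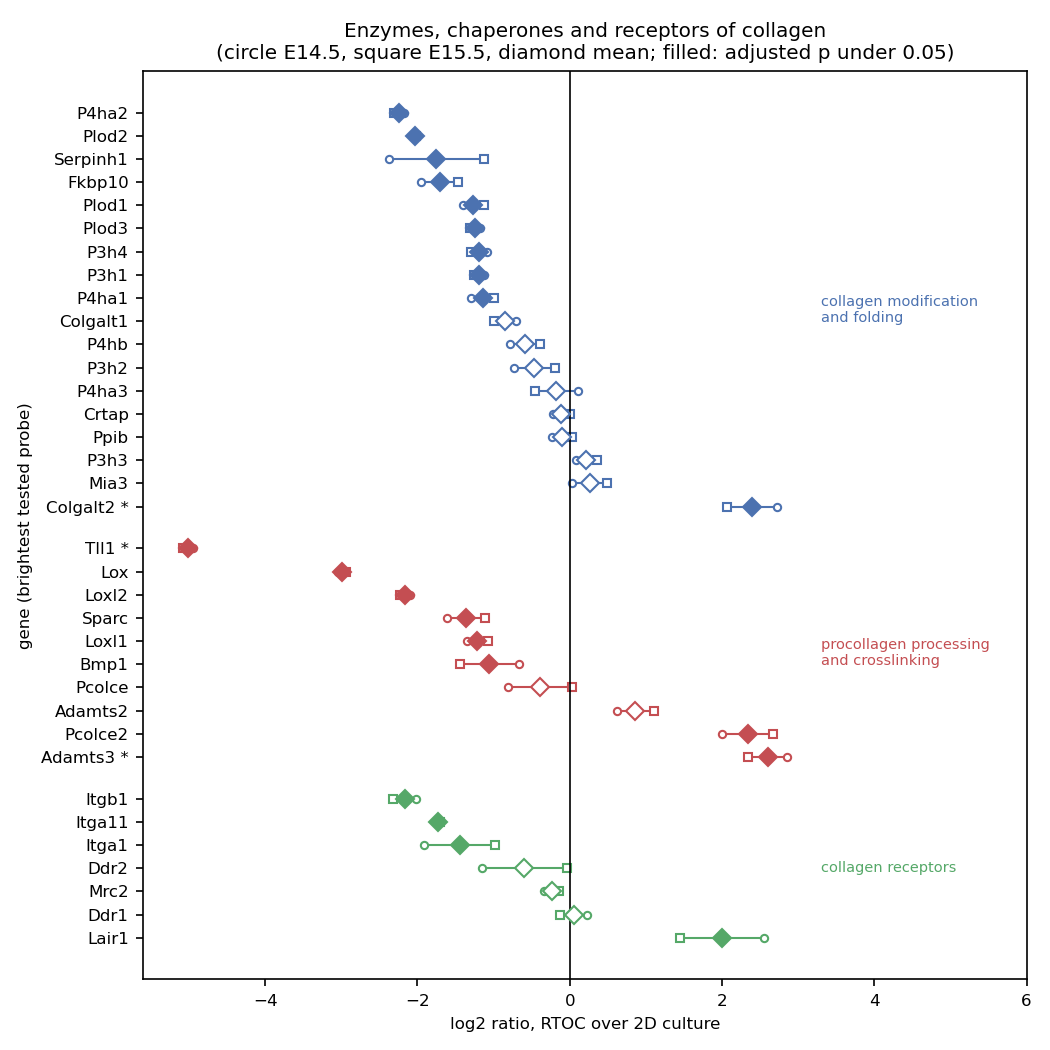
The log2 ratio of RTOC over 2D culture (horizontal axis) for genes that modify, process, crosslink or bind collagen, 1 row for the brightest tested probe of each, with the E14.5 array as a circle, the E15.5 array as a square and the mean as a diamond, filled where the adjusted p was under 0.05. Most filled diamonds lie below 0, with Colgalt2, Pcolce2, Adamts3 and Lair1 above it, and an asterisk marks a gene not well above background in 1 culture.

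Markers of several cell types moved between the cultures beside the collagen genes. In bulk RNA, fewer cells of a type and less RNA per cell cannot be told apart. All 10 thymic epithelial and all 10 mesenchymal markers cleared background in all 4 channels, as the label thymic stromal cells implies. Of the epithelial markers 5 were called higher and 2 lower, and their summed signal was 312557 to 642028 in 2D culture and 994803 to 994805 in RTOC. Of the mesenchymal markers 4 were called higher (Dcn, Fbln1, Lum and Pdgfra) and 5 lower (Ly6c1, Mfap5, Pdgfrb, Thy1 and Vim), with a median log2 ratio of -0.94. Their sums were 110286 to 201338 in 2D culture and 180388 to 183581 in RTOC. Of 7 contractile markers 4 were called lower and 0 higher, and their sum was 521538 to 597206 in 2D culture and 46668 to 69859 in RTOC, with Des not well above background in any channel. Of 7 endothelial markers 5 were called higher, with sums of 751 to 1646 in 2D culture and 6964 to 10589 in RTOC, and the 2D signals of Cdh5, Pecam1, Tek and Tie1 did not clear background. The brightest Tek probe was not tested, and its other probe was called higher (limma, adjusted p = 0.0183). Of 8 haematopoietic markers 3 were called higher, with sums of 6981 to 7770 in 2D culture and 41018 to 45697 in RTOC, and Cd8a cleared background in no channel. The 7 cartilage markers summed to 7030 to 9310 in 2D culture and 3282 to 6210 in RTOC. Most of each sum was Sox9, at log2 levels of 12.72 and 13.15 in 2D culture and 11.22 and 12.33 in RTOC. The sums therefore do not speak for the other cartilage markers. Of these, Comp, Hapln1, Matn1 and Matn3 cleared background in no channel, Acan was called lower and Cnmd was called higher. The part of any of these in the collagen values was not tested.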

How the data were processed

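RNA of RTOC (Cy5) and 2D culture (Cy3) was hybridized by the authors to 2 arrays of 1 slide, scanned together. The authors extracted the scans with Feature Extraction, version 11.5.1.1 in the processing notes and 9.1.3.1 in the file headers. The deposited scanner files hold mean, background and processed signals as intensity, and a log10 ratio. The deposited series values are the log10 ratio of the processed signals. The methods name quantile normalization in GeneSpring.

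Here control and outlier-marked spots (5 and 1) were dropped, the 4 channels were quantile normalized, spots of a probe were averaged, and log2 of Cy5 over Cy3 was tested against 0, two-sided, with limma 3.58.1 in R 4.3.3 (lmFit with an intercept, eBayes, Benjamini-Hochberg). The arrays count as 2 replicates, and an exact sign-flip test could not go below p = 0.5. Between 53.1% and 60.9% of probes per channel were well above background. Their number and the signal over background limit the precision. Where 1 culture stayed dim (not well above background) on both arrays the change is a bound, from normexp, loess and Aquantile values against the dimmest probe well above background. The probe's own dim signal took its place where that was higher, and where this was so on both arrays the value is an estimate.

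Collagen probes were named by the files and matched to RefSeq through 57 accessions and 21 symbols. All member probes are accounted for by class, the brightest probe of a gene leads, and from each other list the 3 highest and the 3 lowest called genes are named. No probe was found for Col21a1, Col6a5 or Adamts14. Members, lists, motifs and tests were chosen with earlier results of these data known. Alternatives were normexp with an offset of 50 followed by loess, Aquantile or median centring, unnormalized or median-centred processed signals, the deposited ratios, other filters, each array left out, no replicate block, another variance model and the methods' t-test. On simulated data of 23685 probes with 200 changed, limma recovered 96.4% of changes of 4, 34.8% of 2 and 0% of 1 on the log2 scale, and 11.8% of its calls were false. In the real data 6820 probes were called, far more than were changed in the simulation. The adjusted p depends on that share, so these rates do not carry over to the calls reported here.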

Additional observations from a re-analysis of the deposited data

How the results depend on the processing

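Against 10 collagen probes called higher and 23 called lower, normexp with loess gave 3 higher with or without Aquantile, normexp with median centring gave 4 higher and 12 lower, a filter on signal above background in all 4 channels gave 6 higher, and no replicate block gave 4 higher. For the other genes of the collagen pathway (8 higher, 27 lower) the higher calls came to 4, 4 and 3 under normexp with loess, with Aquantile and with median centring, and the lower calls to 11 under the last. Over all probes (3609 higher, 3211 lower) these 3 gave 2012, 2012 and 2219 higher and 1704, 1704 and 685 lower, and no replicate block gave 2220 and 1813. No filter on dim probes and the methods' t-test each gave 0 calls in every set, with 14 and 27 collagen probes at an unadjusted p under 0.05 without the filter, 6 and 10 by the t-test and 11 and 27 by limma as reported. The cause was not tested. Leaving out an array and counting 2-fold changes gave 8 to 9 collagen probes higher and 20 to 24 lower. Median centring moved the median of all probes by 0.12 (normexp) and 0.15 (processed signals). No collagen gene changed sign past the threshold.

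By the brightest probe, normexp with loess kept 12 of 14 genes called lower, all except Col1a2 and Col4a5 (adjusted p = 0.0503 and 0.0798), and 3 of 8 called higher, Col6a1, Col8a2 and Col27a1. With no replicate block the calls of Col1a2, Col4a2, Col4a5, Col6a1, Col6a2, Col18a1, Col24a1 and Col27a1 were lost, with adjusted p from 0.0577 to 0.217. Under normexp with loess the FACIT median was 0.16 and under normexp with median centring the fibrillar median was -0.63. The transmembrane median of -0.23 became 0.08 without the E15.5 array. Of the higher genes lost under normexp with loess, Col9a1, Col13a1 and Col24a1 were dim in 2D culture. Of the 19 called genes measured in at least 3 channels, the fold of 7 moved by over 1.5 times, namely Col12a1, Col8a2, Col17a1, Col4a3, Col11a1, Col8a1 and Col4a5, each toward a smaller change. Col3a1 under normexp with median centring, and Col20a1 on unnormalized, median-centred or deposited ratios, passed as higher.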
